A study of Mus musculus with 12 samples.

Results

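Macrophage and myeloid cell genes were followed through 3 zones cut by hand from the embryonic mouse tibia. The 38 genes were chosen by name, as genes that mark tissue macrophages, that several myeloid cells share, or that leukocytes in general express. Of these, 37 had a probe set annotated to that 1 symbol, among 18193 genes with such a probe set on the array, and a gene with several was read from the brightest on average over all arrays. Lyn, a Src-family kinase of blood cells, had none and is named only. The tissue macrophage class held 13 genes, the shared myeloid class 15 and the general leukocyte class 10.

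The tibiae came from untreated CD1 mouse embryos at embryonic day 15.5, with no genetic change in any group. Zone I lay at the ends of the bone, zone II next to it and zone III in the mineralized middle, and the study took them as resting and proliferating cartilage, prehypertrophic and hypertrophic cartilage, and the most mature cartilage with mineralized tissue. Each zone was hybridized to 4 arrays, lettered A to D and given here in that order, and the RNA on an array had been pooled within a litter, so n counts pools and not embryos. The labels do not say which arrays shared a litter.

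Macrophages enter the limb early in development and clear dying cells, and cartilage itself is largely free of blood vessels and of blood cells until the hypertrophic matrix is invaded. The invading front brings vessels, blood cells and osteoclasts, the bone-resorbing cells that form by fusion of cells of the monocyte and macrophage line. An osteoclast therefore keeps general leukocyte genes and some phagocyte genes, among them Cd68, which is listed here in the tissue macrophage class. The classes used here thus do not separate osteoclasts from macrophages. In a piece of tissue, fewer cells of a type and less RNA per cell cannot be told apart.

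Values are the deposited signals on a linear scale, on which the trimmed mean of every array was 150.0 and the array median lay between 32.4 and 43.3. A probe set was tested when its mean signal reached 50 in at least 1 zone, which held for 22255 probe sets and 11808 genes. Array A stood apart in zone I, where it was the highest of the 4 arrays for 27 of the 37 members, and in zone II, where it was the highest for 23. The same 2 arrays had more muscle and red cell signal. The summed signal of 8 skeletal muscle genes was 1331 on array A of zone I, against 330 to 533 on the others, and that of 8 erythroid genes was 3461 on array A of zone II, against 503 to 556 on the others. In zone III array A was the highest for the erythroid genes too, with 3707 against 1538 to 1786. The part of these tissues in the results was not tested, and counts without the 2 arrays are given below. Zone III also differed in the ratio of 3′ to 5′ signal of the control transcripts, with 1.27 to 1.76 for Gapdh in zone I, 1.25 to 1.51 in zone II and 1.98 to 2.28 in zone III. For actin the ratio ran the other way, with 2.09 to 2.95 in zone I, 2.63 to 3.23 in zone II and 1.70 to 2.02 in zone III, and the part of RNA quality in the results was not tested.

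Of the 37 measured members, 31 passed the floor on signal, and all 31 were higher in zone III than in zone II. The calls are limma's at a Benjamini-Hochberg adjusted p under 0.05 over all probe sets tested. In the same comparison 30.8% of all genes tested were higher and 22.7% lower, and 0 members were lower, also at an unadjusted p under 0.05. Between zone III and zone I, 21 members were higher, 2 were lower and 8 did not pass, beside 21.6% higher and 21.7% lower of all genes. Between zone II and zone I, 3 members were higher, 13 were lower and 15 did not pass, beside 16% higher and 25.4% lower of all genes. Centring each array on its ribosomal protein genes, which moved the median over all probe sets from -0.07 to -0.37, gave 2 members higher and 22 lower in that comparison.

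The floor on signal let in 11 of the 31 members through zone III alone, among them Fcer1g, Cd84, Mpeg1 and Plek, so that a difference in favour of zone III came with their passing it. Without a floor, 32 of the 37 members were higher in zone III than in zone II, beside 19.3% of 18193 genes. On the same basis 21 of 37 were higher in zone III than in zone I, beside 12.5%, and 15 of 37 were lower in zone II than in zone I, beside 14.1%. The median log2 difference over the 37 members was 2.17 for zone III minus zone II, 1.38 for zone III minus zone I and -0.88 for zone II minus zone I, where the medians over all genes were 0.07, 0.00 and -0.07. Cd163, C1qa, Trem2, Fcgr1, Aif1 and Cybb stayed below 50 in the mean of every zone, and their values are given without a call.

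**Figure D1:**
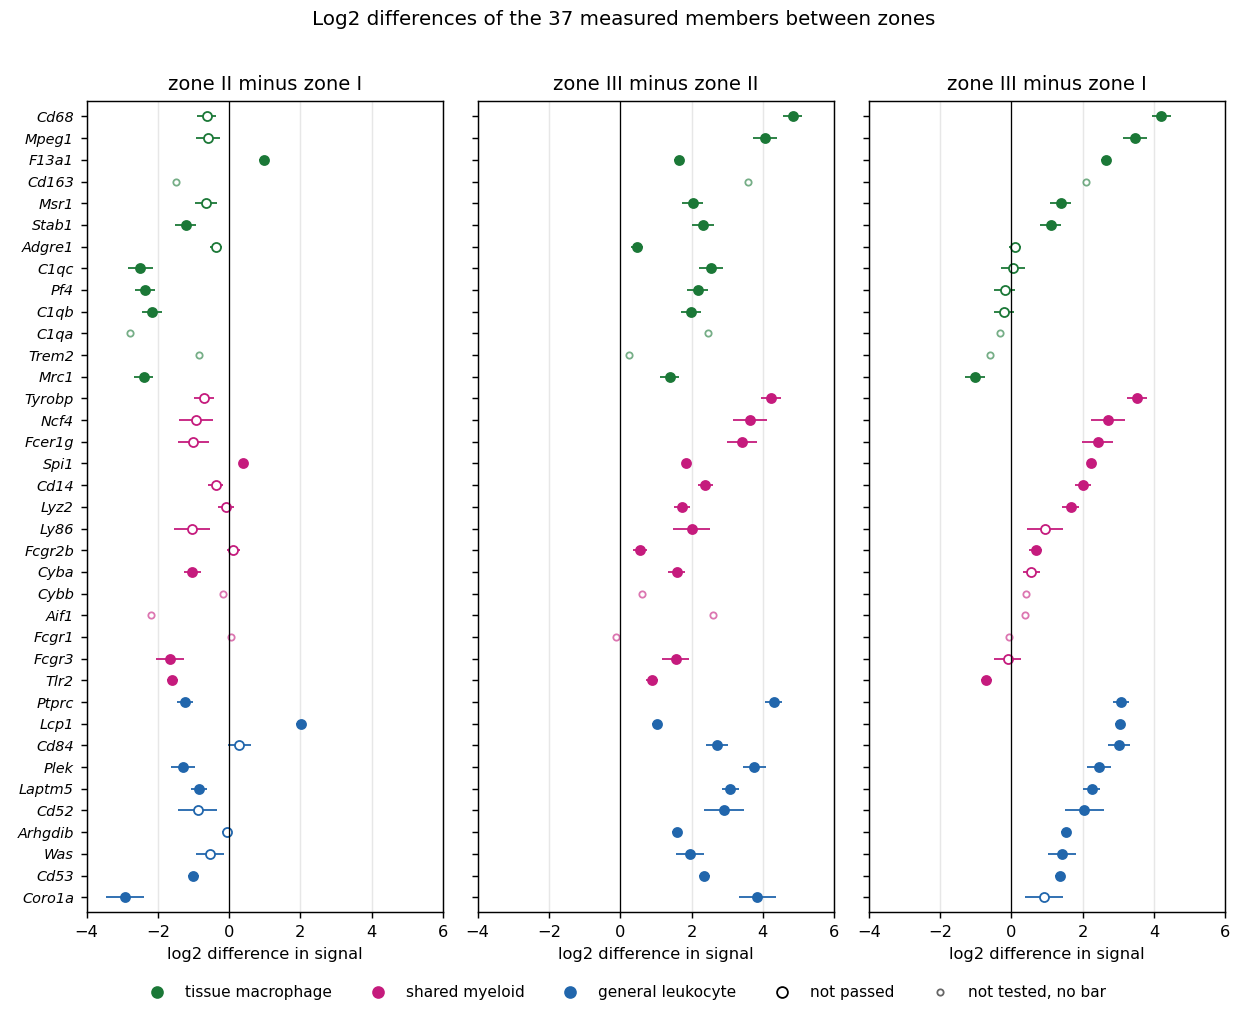
Log2 difference in signal of the 37 measured members in 3 comparisons of zones, with bars for 1 standard error from limma. Filled points passed the test, open points did not, and small points were below the floor and not tested. All tested members lie right of 0 in zone III minus zone II, while zone III minus zone I runs between -1.02 (Mrc1) and 4.21 (Cd68).

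Of the leukocyte surface genes, 5 of 5 measured members were higher in zone III than in either other zone. Of all genes 30.8% were higher in zone III than in zone II and 21.6% than in zone I. Cd53, Cd52 and Cd84 reached the floor through zone III alone, so a rise there came with their passing it. Ptprc, the leukocyte phosphatase CD45, read 66.4, 39.8, 64.9 and 50.3 in zone I, 27.6, 32.1, 20.9 and 15.5 in zone II, and 497, 490, 474 and 371 in zone III. No array of zone III came near those of the other zones, and zones I and II did not overlap. Ptprc was 8.39-fold higher in zone III than in zone I (log2 difference 3.07 ± 0.23 SE, n = 4 arrays per zone, limma adjusted p = 5.9e-07), and 2.34-fold lower in zone II than in zone I (limma adjusted p = 0.00126). Laptm5, a lysosomal membrane protein of blood cells, read 388, 359, 268 and 191 in zone I, 229, 136, 150 and 149 in zone II, and 1546, 1434, 1456 and 1122 in zone III. It was 4.75-fold higher in zone III than in zone I (limma adjusted p = 7.9e-06) and 1.79-fold lower in zone II than in zone I (limma adjusted p = 0.0121), where the arrays of both zones overlapped. The second of these calls was lost with median centring and with the median over the probe sets of the gene, and 2 of the other 3 tested probe sets did not pass in it (-0.07 and -0.21, limma adjusted p = 0.759 and 0.565). The probe set of Laptm5 is of a kind that may bind related transcripts, and 1 of the others did not pass in any comparison (zone III minus zone II 0.08, limma adjusted p = 0.813).

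Cd84, a receptor of the SLAM family, read 20.0, 11.6, 7.36 and 15.1 in zone I, 21.8, 10.6, 11.7 and 21.3 in zone II, and 85.7, 107, 109 and 108 in zone III. Zones I and II overlapped and zone III stood clear of both, 8.05-fold above zone I (limma adjusted p = 8.1e-06). The tetraspanin Cd53 was 2.57-fold higher and the small GPI-anchored protein Cd52 was 4.11-fold higher in zone III than in zone I (limma adjusted p = 1.5e-05 and 0.0102). Of the other surface genes, Cd53 was also lower in zone II than in zone I, while Cd52 (-0.88, limma adjusted p = 0.236) and Cd84 (0.29, limma adjusted p = 0.501) did not pass.

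Genes of the leukocyte cytoskeleton parted in zone II. Lcp1, the actin-bundling protein L-plastin, read 162, 188, 137 and 162 in zone I, 714, 568, 697 and 638 in zone II, and 1477, 1270, 1383 and 1201 in zone III. The zones did not overlap and rose in steps, with zone II 4.04-fold above zone I (log2 difference 2.01 ± 0.13 SE, limma adjusted p = 2.6e-07) and zone III 2.04-fold above zone II (limma adjusted p = 2.6e-05). Its second probe set was called the same way in each comparison. Coro1a, coronin 1A, had the opposite course at zone II, with 103, 60.4, 73.3 and 64.0 in zone I, 36.0, 7.83, 9.70 and 3.23 in zone II, and 149, 157, 155 and 104 in zone III. Coro1a was 7.59-fold lower in zone II than in zone I (log2 difference -2.92 ± 0.53 SE, limma adjusted p = 0.00105), where the zone II readings lay near the background of the arrays. Its zone III arrays all lay above those of zone I, but the difference did not pass (0.92 ± 0.53, limma adjusted p = 0.195), while the second tested probe set of Coro1a did (1.40, limma adjusted p = 0.0217).

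Plek, pleckstrin, a substrate of protein kinase C in platelets and leukocytes, was 5.51-fold higher in zone III than in zone I and 2.46-fold lower in zone II than in zone I (limma adjusted p = 8.6e-05 and 0.00881). Arrays of zones II and I overlapped for Plek, and 1 of its other tested probe sets did not pass between them (-0.35, limma adjusted p = 0.566). Was, the Wiskott-Aldrich syndrome protein, was 2.68-fold higher in zone III than in zone I (limma adjusted p = 0.0130). Arhgdib, a cytoskeletal regulator of blood cells, read 225, 167, 231 and 213 in zone I, 187, 199, 212 and 204 in zone II, and 574, 497, 705 and 642 in zone III. Zones I and II shared the same range and zone III was 2.89-fold above zone I (limma adjusted p = 2.8e-06). Aif1, the calcium-binding protein IBA1 used as a macrophage stain, was below the floor, with means of 31.3, 8.03 and 36.6 in zones I, II and III.

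Spi1 encodes PU.1, the transcription factor that macrophages and osteoclasts both need. Its signals were 42.4, 36, 37 and 34.7 in zone I, 48.7, 52.7, 44.0 and 52.5 in zone II, and 161, 203, 165 and 182 in zone III. The 3 zones did not overlap and stood in rising order. Zone III was 4.73-fold above zone I (log2 difference 2.24 ± 0.12 SE, limma adjusted p = 2.7e-08), and zone II was 1.32-fold above zone I (0.40 ± 0.12, limma adjusted p = 0.0175). The step between zones II and I was lost without the floor on signal and under ribosomal protein centring, which are among 4 settings that ended that call.

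The Fc receptors bind antibody, and most signal through adaptors with an activation motif, of which Fcer1g and Tyrobp were on the list. Tyrobp, the adaptor DAP12, which osteoclasts use as well, read 75.9, 46.1, 79.7 and 51.3 in zone I, 70.3, 34.2, 33.1 and 25.6 in zone II, and 779, 720, 706 and 638 in zone III. Zones I and II overlapped, and zone III was 11.5-fold above zone I (log2 difference 3.53 ± 0.28 SE, limma adjusted p = 8.4e-07). Fcer1g, the common gamma chain, read 39.4, 12.4, 46.1 and 37 in zone I, 29.1, 14.6, 7.77 and 15.9 in zone II, and 155, 184, 185 and 129 in zone III. Zone III was clear of both other zones and 5.35-fold above zone I (limma adjusted p = 0.00065).

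Between zones III and I, the receptors Fcgr3 and Fcgr2b differed by less than Fcer1g and Tyrobp. Fcgr3 read 110, 42.1, 48.8 and 55.9 in zone I, 44.7, 11.9, 13.3 and 17.9 in zone II, and 49.4, 65.2, 57.1 and 49.9 in zone III. Zone III lay within the range of zone I (-0.11 ± 0.39, limma adjusted p = 0.842), and zone II was 3.16-fold below zone I (limma adjusted p = 0.00498) with array A of zone II inside the range of zone I. Fcgr2b, the inhibitory receptor, was 1.61-fold higher in zone III than in zone I (0.68 ± 0.19, limma adjusted p = 0.0139) and 1.48-fold higher than in zone II (limma adjusted p = 0.0300). The call against zone II was lost in 7 settings, among them quantile normalization and the fit without array B of zone III. Other probe sets of Fcgr2b were all below the floor and untested, and they differed in direction. They ran from -1.6 to 1.21 for zone II minus zone I and from -0.78 to 2.19 for zone III minus zone II. Fcgr1 and Trem2, a lipid receptor that signals through Tyrobp, stayed below the floor, with zone means between 30.3 and 32.6 for Fcgr1 and between 14.1 and 26.5 for Trem2. A second probe set of Fcgr1, also below the floor with a highest zone mean of 37.3, differed by 2.26 on the log2 scale for zone III minus zone II and by -1.69 for zone II minus zone I, untested.

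Among scavenger and lectin receptors, Cd68 had the largest difference of all members. Cd68, the lysosomal protein macrosialin, read 80.3, 37.8, 51.2 and 52.5 in zone I, 62.7, 27.9, 25.6 and 31.8 in zone II, and 1007, 1078, 988 and 890 in zone III. Zone III formed a group far above the other zones, 18.5-fold over zone I (log2 difference 4.21 ± 0.27 SE, limma adjusted p = 1.7e-07) and 28.6-fold over zone II (limma adjusted p = 5.7e-08). Mrc1, the mannose receptor CD206, differed from Cd68 in having its highest signal in zone I, with 361, 190, 254 and 244 in zone I, 68.5, 43.1, 28 and 65.6 in zone II, and 131, 106, 125 and 147 in zone III. The zones did not overlap. Mrc1 was 2.02-fold lower in zone III than in zone I (-1.02 ± 0.27, limma adjusted p = 0.01) and 5.29-fold lower in zone II than in zone I (-2.40 ± 0.27, limma adjusted p = 2.9e-05). Against zone II it was 2.62-fold higher in zone III (limma adjusted p = 0.00103).

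Stab1, the endocytic receptor stabilin-1, which some endothelium expresses too, read 75.0, 47.5, 43.1 and 54.9 in zone I, 45.5, 18.7, 18 and 18.7 in zone II, and 138, 125, 127 and 82.2 in zone III. It was 2.15-fold higher in zone III than in zone I and 2.33-fold lower in zone II than in zone I (limma adjusted p = 0.0101 and 0.00638), with array A of zone II inside the range of zone I. Msr1, the class A scavenger receptor, was 2.60-fold higher in zone III than in zone I (limma adjusted p = 0.00276). Cd163, a haemoglobin scavenger receptor, was below the floor but had its 4 highest values, 20.3, 38.2, 25.0 and 23.1, in zone III, against 2.46 to 8.73 in zone I.

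**Figure D2:**
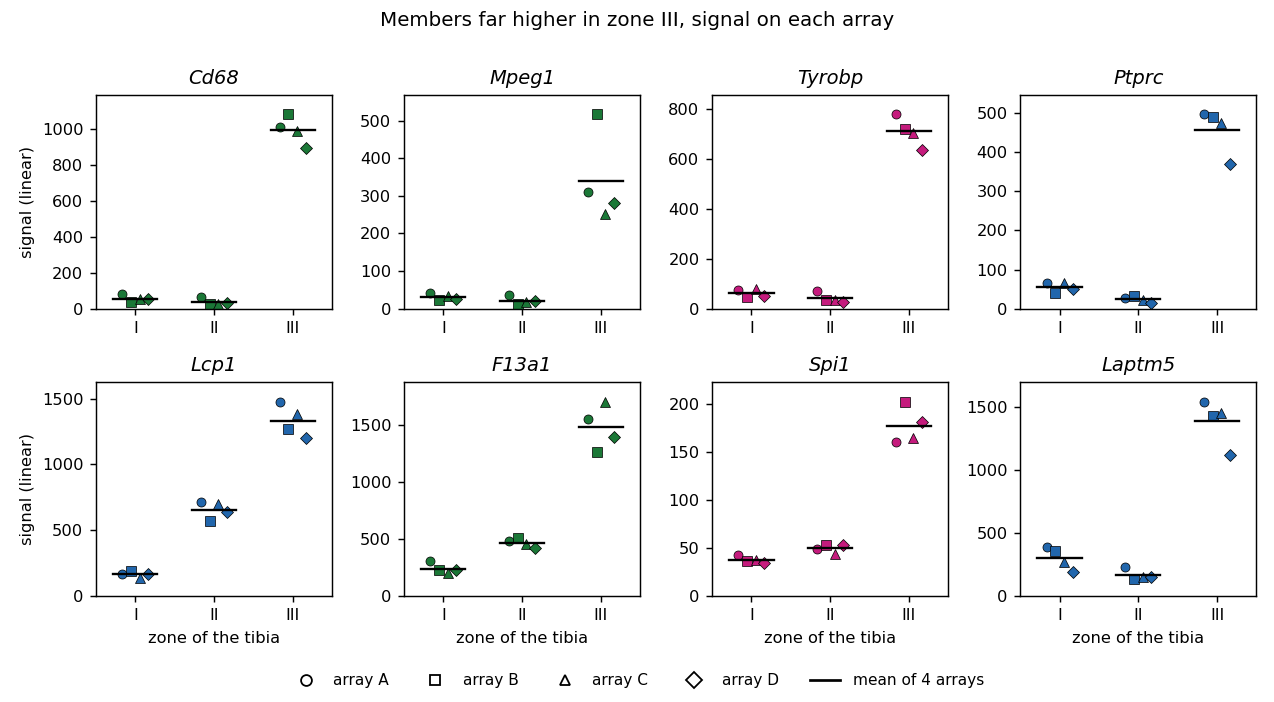
Signal on each array (points, marked by array letter) and mean of 4 arrays (line) by zone, on linear axes that start at 0, for 8 members called higher in zone III than in zone I. Green marks tissue macrophage genes, pink shared myeloid genes and blue general leukocyte genes. Cd68 lies between 890 and 1078 in zone III and at most at 80.3 elsewhere, while Lcp1, F13a1 and Spi1 are already higher in zone II than in zone I.

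Mpeg1, the pore-forming perforin-2 of macrophages, read 41.9, 21.8, 34.7 and 24.6 in zone I, 37, 11.5, 17.5 and 19.6 in zone II, and 311, 516, 252 and 280 in zone III. Every zone III array exceeded every other, and the difference from zone I was 11-fold (log2 difference 3.46 ± 0.34 SE, limma adjusted p = 6.0e-06). Adgre1, which encodes F4/80, the classical surface marker of mouse macrophages, was nearly level. It read 296, 197, 246 and 303 in zone I, 201, 150, 229 and 218 in zone II, and 250, 317, 256 and 280 in zone III. Zones III and I overlapped (0.10 ± 0.17, limma adjusted p = 0.689), and the 1.40-fold rise of zone III over zone II (limma adjusted p = 0.0336) was lost in 10 settings, among them median centring and the fit without array A of zones I and II.

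The 3 chains of C1q, the first component of complement, which tissue macrophages make, had a trough in zone II. C1qb read 255, 159, 166 and 155 in zone I, 69.9, 46.2, 31.8 and 24.6 in zone II, and 172, 178, 129 and 154 in zone III. C1qc read 74.0, 52.9, 39.2 and 40.6 in zone I, 16.5, 7.64, 11.6 and 4.29 in zone II, and 51.6, 59.4, 44.7 and 51.7 in zone III. For both, zone II lay below all other arrays, and zones III and I overlapped. C1qb was 4.51-fold and C1qc 5.62-fold lower in zone II than in zone I (limma adjusted p = 8.4e-05 and 0.00014), and both were higher in zone III than in zone II, by 3.94-fold and 5.80-fold (limma adjusted p = 8.9e-05 and 5.9e-05). Zone III minus zone I was -0.20 ± 0.28 for C1qb and 0.05 ± 0.34 for C1qc (limma adjusted p = 0.616 and 0.930). C1qa, just under the floor, had the same course, with 82.9, 57.5, 17.8 and 36.0 in zone I, 9, 5.93, 4.11 and 6.50 in zone II, and 47.6, 18.1, 28.3 and 53.5 in zone III. The 3 genes are neighbours on mouse chromosome 4, and both other tested probe sets of C1qb were called as its main one.

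**Figure D3:**
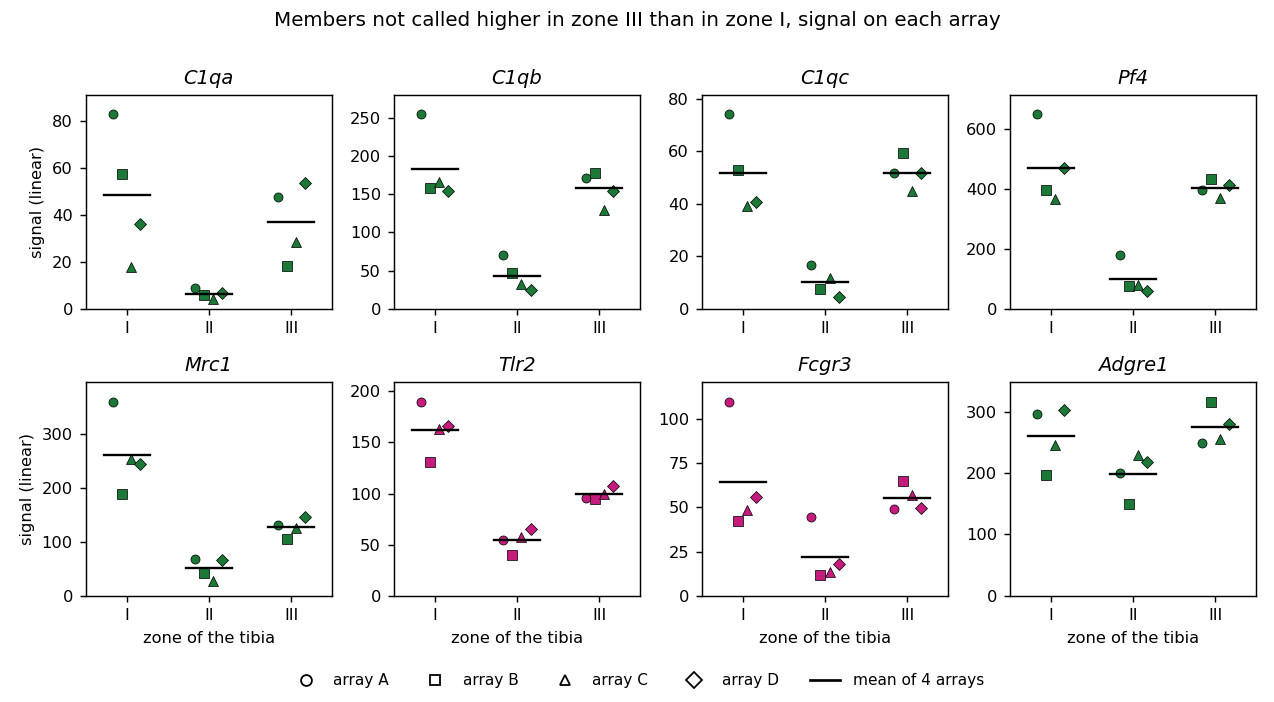
Signal on each array (points, marked by array letter) and mean of 4 arrays (line) by zone, on linear axes that start at 0, for 8 members not called higher in zone III than in zone I. C1qa was below the floor and not tested. Green marks tissue macrophage genes and pink shared myeloid genes. The C1q chains and Pf4 have zones III and I in the same range above zone II. Fcgr3 has the same course, except that array A of zone II lies inside the range of zone I. In Mrc1 and Tlr2 zone III lies between zone II and zone I.

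Secreted products gave 3 different courses. Pf4, a chemokine of platelet granules that many embryonic macrophages also express, read 647, 396, 366 and 469 in zone I, 180, 75.0, 78.2 and 59.5 in zone II, and 394, 432, 369 and 413 in zone III. Zone II was apart from both other zones, which overlapped. Pf4 was 5.14-fold lower in zone II than in zone I (-2.36 ± 0.29, limma adjusted p = 5.5e-05), with no passing difference between zones III and I (-0.19 ± 0.29, limma adjusted p = 0.640). F13a1, the A chain of clotting factor XIII, read 301, 223, 204 and 223 in zone I, 482, 509, 453 and 421 in zone II, and 1555, 1265, 1708 and 1398 in zone III. The zones rose in steps without overlap, and zone II was 1.98-fold above zone I and zone III 3.16-fold above zone II (limma adjusted p = 0.00019 and 1.3e-06). Lyz2, lysozyme M, whose probes may also bind the near-identical Lyz1, read 134, 103, 94.7 and 95.0 in zone I, 144, 112, 65.0 and 95.4 in zone II, and 346, 419, 318 and 267 in zone III. Zones I and II overlapped, and zone III was 3.15-fold above zone I (limma adjusted p = 9.0e-05).

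The bacterial sensors did not move together. Cd14, which hands lipopolysaccharide to its receptor complex, read 86.5, 58.0, 59.5 and 58.5 in zone I, 62.4, 59.7, 51.9 and 31.8 in zone II, and 239, 315, 227 and 271 in zone III, with zone III 4.04-fold above zone I (limma adjusted p = 1.2e-05). Tlr2, the receptor for bacterial lipoproteins, read 190, 131, 163 and 166 in zone I, 54.9, 40.0, 57.0 and 65.7 in zone II, and 95.9, 94.2, 100 and 107 in zone III. As for Mrc1, the zones of Tlr2 did not overlap and zone I was the highest. Tlr2 was 1.62-fold lower in zone III than in zone I (-0.70 ± 0.16, limma adjusted p = 0.00374) and 3-fold lower in zone II than in zone I (limma adjusted p = 1.1e-05). Ly86, the MD-1 partner of a Toll-like receptor relative, was 4.00-fold higher in zone III than in zone II (limma adjusted p = 0.00577) and did not pass against zone I (0.95 ± 0.51, limma adjusted p = 0.160).

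The phagocyte oxidase makes superoxide through a membrane pair, Cybb and Cyba, and cytosolic subunits such as Ncf4. Ncf4 read 42.2, 48.1, 36.4 and 58.9 in zone I, 63.3, 18.4, 38.8 and 7.37 in zone II, and 322, 291, 286 and 299 in zone III. Zone II was spread widely, and zone III was 6.55-fold above zone I (2.71 ± 0.49, limma adjusted p = 0.00081). Cyba, which non-phagocytic cells express too, was 2.04-fold lower in zone II than in zone I (limma adjusted p = 0.00463) and 3.01-fold higher in zone III than in zone II (limma adjusted p = 0.00013), with no passing difference between zones III and I (0.56 ± 0.24, limma adjusted p = 0.0803). In the paired fit, with the array letter as a replicate block, that difference passed (limma adjusted p = 0.0143). Cybb, the catalytic chain, was below the floor, with 34.4, 19.9, 35.3 and 38.6 in zone I, 36.1, 34.7, 18.3 and 24.4 in zone II, and 46.5, 39.1, 43.2 and 37.6 in zone III. Another probe set of Cybb, with a highest zone mean of 48.8 just under the floor, differed by 2.36 on the log2 scale for zone III minus zone II and by 1.80 for zone III minus zone I, untested.

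The promoters of 4 members are shown because these genes bound the range of zone III minus zone I among tested members with an entry in the RefSeq promoter table. Of these, Cd68 and Mpeg1 had the largest differences (18.5-fold and 11-fold higher in zone III), and Mrc1 and Tlr2 were the 2 that were lower in zone III. Each sequence holds 250 bases before and 50 bases after the annotated start, 5′ to 3′ on the strand of the gene, from build GRCm38.p6. The stretches are chr11:69666121-69666420 (minus strand), chr19:12460520-12460819 (plus strand), chr2:14229164-14229463 (plus strand) and chr3:83841559-83841858 (minus strand). Capitals mark GAGGAA or its reverse complement, letters found at the core of many sites of PU.1.
Cd68: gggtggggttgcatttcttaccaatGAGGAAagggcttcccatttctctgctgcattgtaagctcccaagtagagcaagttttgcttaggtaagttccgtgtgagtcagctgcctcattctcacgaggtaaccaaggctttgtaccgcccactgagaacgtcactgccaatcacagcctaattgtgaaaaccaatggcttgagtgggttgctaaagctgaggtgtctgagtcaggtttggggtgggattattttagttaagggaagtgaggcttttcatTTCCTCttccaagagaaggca
Mpeg1: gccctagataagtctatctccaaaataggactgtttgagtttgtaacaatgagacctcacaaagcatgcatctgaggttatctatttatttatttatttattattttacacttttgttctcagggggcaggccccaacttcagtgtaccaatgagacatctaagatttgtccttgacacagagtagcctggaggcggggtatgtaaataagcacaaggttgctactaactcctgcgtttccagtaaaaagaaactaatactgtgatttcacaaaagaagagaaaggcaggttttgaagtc
Mrc1: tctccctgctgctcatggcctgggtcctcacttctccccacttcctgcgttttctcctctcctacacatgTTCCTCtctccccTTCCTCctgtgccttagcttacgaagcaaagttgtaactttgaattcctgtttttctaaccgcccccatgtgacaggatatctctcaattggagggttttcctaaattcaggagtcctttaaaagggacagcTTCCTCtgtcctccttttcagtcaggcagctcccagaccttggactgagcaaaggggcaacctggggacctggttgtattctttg
Tlr2: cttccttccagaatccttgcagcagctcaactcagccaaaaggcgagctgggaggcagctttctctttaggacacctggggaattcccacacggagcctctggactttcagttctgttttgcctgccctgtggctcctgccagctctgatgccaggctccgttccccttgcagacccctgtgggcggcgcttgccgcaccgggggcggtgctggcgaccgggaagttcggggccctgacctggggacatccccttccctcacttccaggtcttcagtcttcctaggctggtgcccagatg

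The letters occurred 2 times in the Cd68 stretch, 3 times in that of Mrc1 and 0 times in those of Mpeg1 and Tlr2, so that the pair with the largest rise and the pair that was lower each had 1 gene with a match and 1 without. Of the 38 members, 29 had a promoter entry, and 19 of these held the letters on either strand in at least 1 listed promoter (65.5%), against 31.3% of 27025 genes in the table. Counted by single promoters, 28.3% of all 32851 held them. Members with a match followed different courses, such as C1qb and C1qc with their trough, F13a1 with its steps and Cd84 with its rise in zone III alone.

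By class, the median log2 difference of zone III minus zone I was 0.10 over 13 tissue macrophage genes, 0.82 over 14 shared myeloid genes and 2.14 over 10 general leukocyte genes. The first median includes Cd163 (2.10), C1qa (-0.31) and Trem2 (-0.61), which were below the floor. The second includes Fcgr1 (-0.07), Aif1 (0.39) and Cybb (0.42), also below it. All of these but Cd163 lay under the median of their class, so the distance between the class medians rests partly on readings near the background. Of the tested members of each class, 5 of 10 tissue macrophage genes were higher in zone III, 1 was lower and 4 did not pass, against 7 higher, 1 lower and 3 not passed of 11 shared myeloid genes, and 9 higher and 1 not passed of 10 general leukocyte genes, beside 21.6% of all genes higher. These counts are partly set by the floor, which 2 of the 10 tissue macrophage genes (Msr1 and Mpeg1), 4 of the 11 shared myeloid genes (Fcer1g, Ncf4, Spi1 and Ly86) and 5 of the 10 general leukocyte genes (Cd53, Cd52, Cd84, Plek and Was) passed through zone III alone. The tissue macrophage class was itself divided, with a range of -1.02 to 4.21, whereas the general leukocyte class ranged from 0.92 to 3.07. Zone III minus zone II was alike in direction in all classes, with medians of 2.17, 1.79 and 2.82, and zone II minus zone I had medians of -1.22, -0.81 and -0.86. The difference between classes was not tested, since genes are not replicates.

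**Figure D4:**
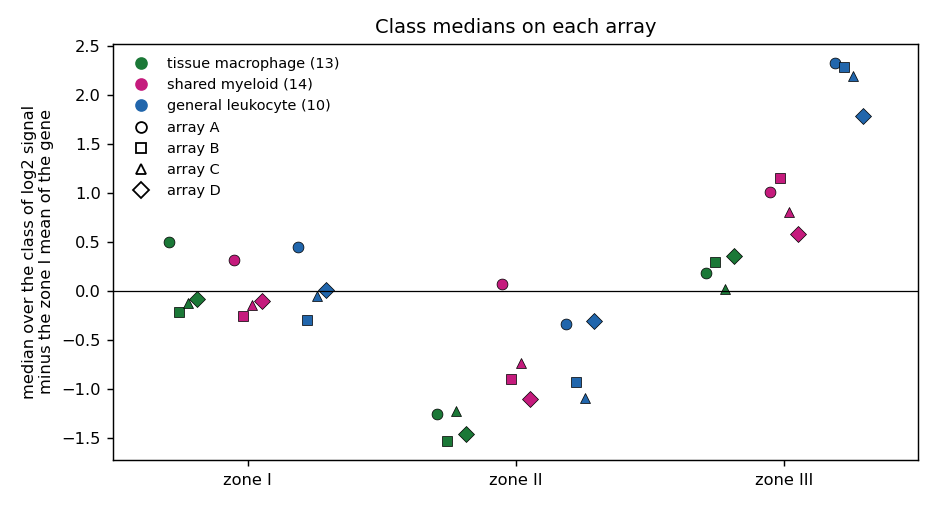
Median over each class of the log2 signal minus the gene's zone I mean, on each array, for 13 tissue macrophage, 14 shared myeloid and 10 general leukocyte genes. Members below the floor are included, all of them in the first 2 classes. In zone III the general leukocyte medians lie between 1.79 and 2.33 and the tissue macrophage medians between 0.02 and 0.36, and in zone II the tissue macrophage medians lie between -1.53 and -1.22.

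On single arrays of zone III the class medians, each set against the zone I mean, ran from 0.02 to 0.36 for tissue macrophage genes, 0.58 to 1.15 for shared myeloid genes and 1.79 to 2.33 for general leukocyte genes, without overlap between classes. On the arrays of zone II the tissue macrophage medians lay between -1.53 and -1.22. Array A of zone II gave 0.07 for the shared myeloid class, where the other 3 arrays gave -1.10 to -0.73. The arrays were run in 3 fluidics runs of 4 arrays, each with all zones. Within each run all 10 general leukocyte genes were higher in zone III than in zone I, and 7, 12 and 9 of 13 tissue macrophage genes were. Within each run the median of zone III minus zone II over all members was positive (1.72, 2.5 and 1.88), and that of zone II minus zone I was negative (-0.39, -1.05 and -0.82). In the first run the 14 shared myeloid genes went the other way for zone II minus zone I, with a median of 0.19 and 8 of 14 positive.

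Leaving out array A of zones I and II kept the direction of these counts. Zone III minus zone II then gave 30 members higher and 0 lower, zone III minus zone I gave 24 higher and 2 lower, and zone II minus zone I gave 3 higher and 16 lower.

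Other genes of the macrophage line, from a list of 30 that overlaps none of the members, were also measured. Of 20 tested, 17 were higher and 1 was lower in zone III than in zone II, beside 30.8% and 22.7% of all genes. Between zones III and I, 12 were higher and 2 lower, beside 21.6% and 21.7%. In zone II minus zone I, 3 were higher and 9 lower, beside 16% and 25.4%. Gpnmb, Irf8, Cebpa, Clec4n, Clec7a and Tlr4 reached the floor through zone III alone, so a rise there came with their passing it. Mertk, a receptor for the uptake of dying cells, was the 1 lower in zone III than in zone II (-0.48, limma adjusted p = 0.00802), and was higher in zone II than in zone I (0.43, limma adjusted p = 0.019). Lgmn, the lysosomal protease legumain, was 3.56-fold higher in zone II than in zone I (limma adjusted p = 8.1e-05). Csf1r, the receptor for CSF1 on which macrophages and osteoclasts depend, read 815, 428, 554 and 513 in zone I, 409, 228, 212 and 296 in zone II, and 3230, 2517, 2786 and 2463 in zone III. Csf1r was 4.87-fold higher in zone III than in zone I (limma adjusted p = 7.0e-06) and 2.03-fold lower in zone II than in zone I (limma adjusted p = 0.00389), with no overlap of zones. Cx3cr1, the fractalkine receptor of resident macrophages, read 104, 69.6, 77.7 and 66.3 in zone I, 24.3, 11.8, 17.5 and 29.9 in zone II, and 48.3, 49.9, 46.0 and 49.7 in zone III. Like Mrc1 it was lower in zone III than in zone I (-0.69 ± 0.24, limma adjusted p = 0.0394). Axl, a receptor for dying cells, was the other gene of that list lower in zone III than in zone I (-1.33, limma adjusted p = 0.00033), and Gpnmb, which osteoclasts express as well, had the largest rise (4.02, limma adjusted p = 2.3e-06).

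Of 20 other leukocyte genes tested, 15 were higher and 0 lower in zone III than in zone I, beside 21.6% and 21.7% of all genes. By limma 0 were lower also at an unadjusted p under 0.05. The largest rises were those of the integrin chain Itgb2 (3.40) and the adaptor Fermt3 (3.13). Both, with Lcp2, Syk, Evi2a, Samsn1 and Itgal, reached the floor through zone III alone, so a rise there came with their passing it. In zone II minus zone I, 3 of the 20 were lower and 0 higher, beside 25.4% lower and 16% higher of all genes. At an unadjusted p under 0.05 by limma, 6 were lower and 1 higher. Of the ligands, Csf1 was 4.01-fold higher in zone III than in zone I (limma adjusted p = 4.0e-07), while Il34 and Ccl2 were below the floor. Cxcl12, a chemokine of stroma and vessel walls, had a trough in zone II (-2.72 against zone I, limma adjusted p = 0.00010), with no passing difference between zones III and I (0.16, limma adjusted p = 0.762).

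Markers of osteoclasts and of vessels were read in the same way. The summed signal of 15 osteoclast genes was 1388 to 1590 in zone I, 1358 to 2503 in zone II and 15343 to 18157 in zone III. Of the 15, 14 were higher in zone III than in each other zone, with Mmp9, Acp5 and Ctsk among them. Of all genes 30.8% were higher in zone III than in zone II and 21.6% than in zone I. The summed signal of 12 endothelial genes was 1632 to 2280 in zone I, 903 to 1330 in zone II and 3955 to 4346 in zone III. Of the 12 endothelial genes, 11 were lower in zone II than in zone I, beside 25.4% of all genes. Against zone I, 9 were higher in zone III, beside 21.6%. The osteoclast genes Oscar, Ocstamp, Dcstamp, Calcr and Atp6v0d2 and the endothelial genes Pecam1 and Tie1 reached the floor through zone III alone. A rise in zone III came with their passing it. The part of osteoclasts and of vessels in the members' differences was not tested.

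Lists for other blood cells were small above the floor. Of 9 neutrophil genes 4 were tested, with 1 higher (Prtn3) and 1 lower (Ngp) in zone III than in zone I, and S100a8 and S100a9 stayed below the floor. Of 8 megakaryocyte genes 4 were tested, and limma called 0 of them between zones III and I, also at an unadjusted p under 0.05. The summed megakaryocyte signal was 406 to 466 in zone I, 453 to 645 in zone II and 421 to 444 in zone III. The T cell genes Cd3e, Cd3d and Cd3g and the B cell genes Cd79a and Ms4a1 were below the floor. Of the 3 tested genes on each of these lists, 2 were higher in zone III than in zone I, the T cell genes Cd28 (3.72) and Cd5 (1.06, limma adjusted p = 0.00057) and the B cell genes Cd79b (2.08, limma adjusted p = 0.00214) and Blk (1.24, limma adjusted p = 0.00489). Of 3 tested mast cell genes, Kit was 7.19-fold higher in zone III than in zone I (limma adjusted p = 5.2e-06) and Cpa3 was lower (-0.75, limma adjusted p = 0.0283). All 4 tested genes of dendritic cells and monocytes, Ccr2, Itgax, Zbtb46 and Cd74, were higher in zone III than in zone I. Their differences were 0.62 to 0.98 on the log2 scale. Of all genes tested, 21.6% were higher and 21.7% lower in that comparison. Itgax, Cd74, Prtn3, Cd28, Cd79b and Blk reached the floor through zone III alone, so a rise there came with their passing it.

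**Figure D5:**
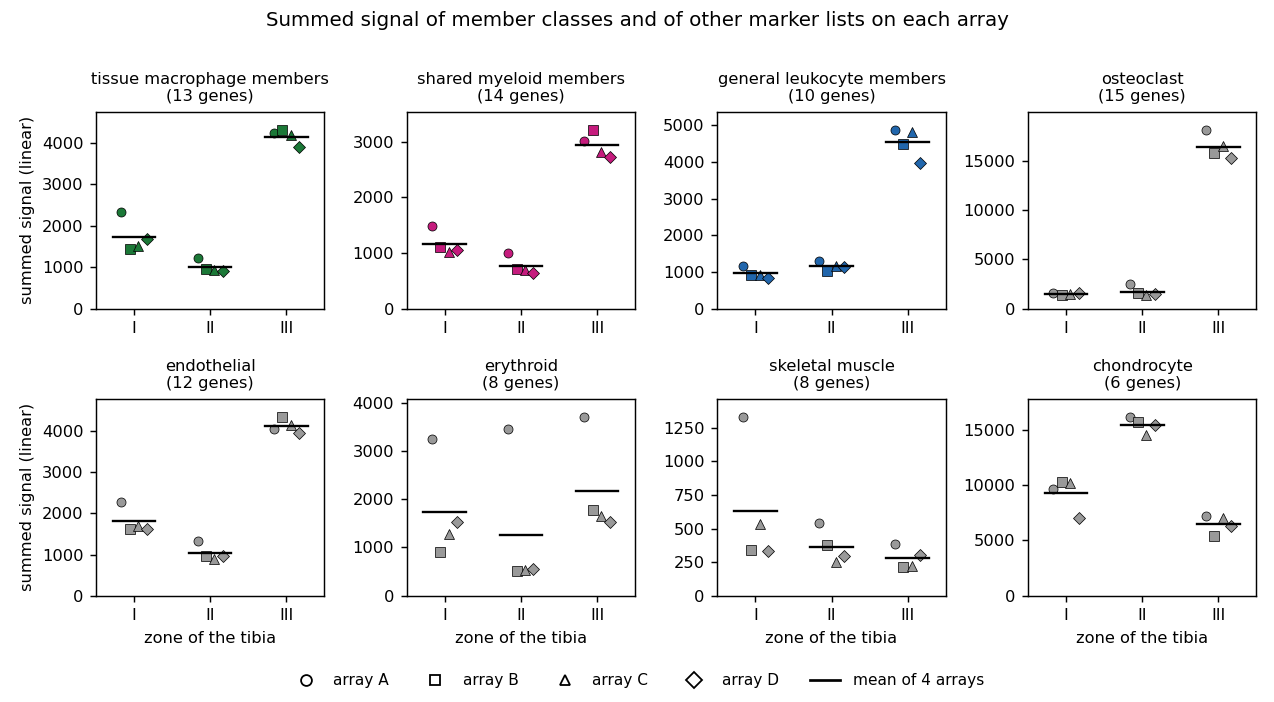
Summed linear signal on each array (points, marked by array letter) and mean of 4 arrays (line) by zone for the 3 member classes (coloured) and 5 lists of other cell types (grey), axes starting at 0. The osteoclast sum is 15343 to 18157 in zone III and at most 2503 elsewhere, the endothelial sum is lowest in zone II, and array A stands out in the erythroid sum of every zone and in the muscle sum of zone I.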

How the data were processed

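RNA of the 3 tibial zones, 4 arrays each, was measured on Affymetrix mouse expression arrays. The intensity values used are the signals as the authors deposited them, linear and scaled to a trimmed mean of 150.0 per array. The paper names GCRMA and RMA and the submitters' notes RMA, but the deposited intensity values do not have the range of either, and which algorithm gave them stays unknown here. Probe sets were named from the platform annotation. Of 45101 probe sets, 64 were controls, 34945 had 1 symbol, 932 had several and 9160 had none, and none was named from several.

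The log2 of the signal, with nothing added, was fitted by zone on all 12 arrays with limma 3.58.1 in R 4.3.3 (lmFit and eBayes), for probe sets whose mean reached 50 in any zone, and p values were adjusted by Benjamini-Hochberg over 22255 probe sets in each comparison. A fold is 2 to the power of the log2 difference. The 4 arrays per zone limit the precision, and p values measure the spread between litter pools and any technical spread together. The paper treats each litter as 1 experiment, but the labels do not tie array letters to litters. By their values, arrays of the same letter paired between zones III and I (correlations of deviations of 0.14 to 0.19, each above those with other letters). Between zones III and II this held for letters A, C and D (0.18, 0.22 and 0.13) and not for B (-0.03). Between zones II and I it held for letter A alone (0.26). The method was tested on simulated data. All 38 members are named, and values on every array were given for defining genes, for the extremes of each class and for members that ran against their class. Up to 4 genes per other list and comparison were to be named by largest difference. Acp5, Cx3cr1 and Lgmn were named outside that order. Apoe (-3.94) and Lyve1 (-3.71), the largest differences of the macrophage list in zone II minus zone I, were not described. Il34, Ccl2, Cxcl12, Mertk and the named genes of other blood cells were chosen after their values were seen. Further genes were named only because they reached the floor through zone III alone. Members and lists were chosen with earlier results of these data known. Promoters came from RefSeq (GRCm38.p6). The alternatives comprised the floor, an added 16, 3 other scalings, the arrays in the fit, other estimates of the spread, blocks for letter and fluidics run, the median over all probe sets of a gene and leaving out each array.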

Additional observations from a re-analysis of the deposited data

Results flagged for a closer look

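In 9 of 93 groups of 4 arrays 1 array of a member lay far from the others by Dixon's test of gap over range. The test flags about 1 group in 20 when values are normal and groups independent. These groups share the same arrays and hold linear signals, so that rate is no reference for the 9. In 6 of the 9 groups the outlying array was array A of zone I or II, at the high end. In zone II array A read 62.7 for Cd68 (others 25.6 to 31.8), 229 for Laptm5 (others 136 to 150), 180 for Pf4 (others 59.5 to 78.2) and 45.5 for Stab1 (others 18 to 18.7). In zone I array A read 86.5 for Cd14 (others 58.0 to 59.5) and 255 for C1qb (others 155 to 166). Array B of zone I was high for Fcgr2b, with 209 against 125 to 137. In zone III array D was low for Coro1a, with 104 against 149 to 157, and array A was low for Cd84, with 85.7 against 107 to 109.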

How the results depend on the processing

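Of 93 tested differences of members, 75 kept their side of the threshold in every setting run. No difference that passed in the main fit or in the other setting changed direction. For differences that passed in neither, the direction was not compared. Of the counts of members called, 1 moved by over 1.5 times, that of members lower in zone II than in zone I, which was 22 instead of 13 with each array centred on its ribosomal protein genes. That centring moved the median difference of all probe sets from -0.07 to -0.37 for zone II minus zone I, from 0.09 to 0.53 for zone III minus zone II and from 0.01 to 0.15 for zone III minus zone I. All probe sets then split into 1300 higher and 8730 lower in zone II minus zone I, instead of 3368 and 4946. Median centring moved zone III minus zone II to -0.13, with 4289 higher and 6486 lower instead of 6348 and 4660, where 29 members stayed higher. When each array was left out in turn, 13 to 19 members were lower in zone II than in zone I, 19 without array B of zone I and 18 without array A of zone II, 29 to 32 were higher in zone III than in zone II and 21 to 22 were higher in zone III than in zone I. With the array letter as a replicate block, 3 members were higher and 15 lower in zone II than in zone I, 31 were higher in zone III than in zone II, and 22 were higher and 2 lower in zone III than in zone I. The letters paired zones III and I, where the block changed the call of Cyba and of no other member. Zone II was paired with the others by some letters only (correlations of -0.13 to 0.26). The calls that changed were 12 differences of zone II minus zone I, 2 of zone III minus zone II (Adgre1 and Fcgr2b) and those of Coro1a, Cyba, Fcgr2b and Ly86 in zone III minus zone I; the causes were not tested. Signals under 50 lie near the background of the arrays, so folds against a low zone are less certain than those of bright probe sets. This holds for Cd84, Mpeg1 and Coro1a in the low zones. It also holds, among others, for Cd68, Tyrobp, Ptprc, Plek and C1qc in zone II, where their means were under 50. Leaving out array A of zones I and II and dropping the floor with 16 added were chosen after seeing the data.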
